A study of Saccharomyces cerevisiae with 8 samples.

Results

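The seripauperin and anaerobic mannoprotein genes of Saccharomyces cerevisiae were followed on 8 Agilent 2-colour arrays. A gene was taken if its systematic name has the standard symbol PAU, DAN or TIR followed by a number. This gave 30 genes out of the 6256 with a probe, namely 24 PAU genes (PAU1 to PAU24), DAN1, DAN4 and TIR1 to TIR4. PAU23 and PAU24 also carry the older names DAN2 and DAN3 in the RefSeq gene table and were counted as PAU genes. All 30 passed the filter on dim probes, which kept 5938 genes.

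The arrays compared yeast after 6 h of a fermentation assay (T6h) with yeast at its start (T0h). JP1 and CAT-1 had 2 arrays each at T6h and BY4741 had 1, while JP1, CAT-1 and PE-2 had 1 array each at T0h. JP1 (homothallic) and the heterothallic CAT-1 and PE-2 are diploid industrial isolates from Brazilian sugarcane mills, and BY4741 is a laboratory strain of the EUROSCARF collection. It is haploid and carries deletions of HIS3, LEU2, MET17 and URA3. All cells came from repeated batches in shaken glucose-rich YPD medium. Sample RNA carried Cy5 (red) and the BY4741 T0h RNA on the same array Cy3 (green), so each value is a log2 ratio to that one reference. A value of 0 means the level of the BY4741 T0h reference. The submitters write of swapping dyes when industrial strains were compared, but the labels give Cy5 for the sample on all 8 arrays, and they were read so. A swapped array would turn the sign of its ratios. No T6h array held PE-2, and the 1 array with BY4741 as its red sample was of T6h.

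The TIR and DAN genes encode serine- and threonine-rich mannoproteins that are bound to the cell wall through a GPI remnant. The seripauperins encoded by the PAU genes belong to the same family but are shorter, poor in serine and close copies of each other, mostly lying near chromosome ends. In laboratory yeast these genes are known to be largely silent in air and to be induced when oxygen, heme and sterol synthesis run low. That control passes through the sterol-responsive activator Upc2, the repressors Mot3 and Rox1 and the Tup1-Cyc8 corepressor. Oxygen was not among the values deposited here. Neither probe nor gene sequences were used, so how far PAU probes also capture RNA of other PAU genes was not tested.

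In the green channel, 89.9% to 91.3% of gene probes were well above background on each of the 6 slide 1 arrays. On slide 2 this share was 20.8% for JP1 T6h replicate 4 and 11.2% for CAT-1 T6h replicate 5. On slide 2, 2 of the 30 genes (TIR1 and TIR2) were well above background in green. The 2 spots of a gene differed by a median of 0.037 to 0.12 log2 over the 30 genes on slide 1, and by 0.52 and 0.66 on slide 2. In the red channel 29 or 30 of the 30 genes were above background on each array. HIS3, LEU2, MET17 and URA3 were above background in red on 7 arrays and not on the BY4741 T6h array, the strain that lacks them. Only 3 of the 8 columns of the separately deposited value table followed the array they are named for best. The column named JP1 T0h followed the JP1 T6h replicate 1 array (r = 0.9998 over genes) and the column named CAT-1 T0h followed CAT-1 T6h replicate 2 (r = 0.9998). That table therefore entered no comparison, and samples are named by the scanner files. Whether the columns or the files carry the wrong names is not given, and T0h and T6h exchanged among slide 1 files would turn the sign of time differences. The columns of the slide 2 arrays followed their own arrays (r = 0.9986 for JP1 T6h replicate 4 and 0.9924 for CAT-1 T6h replicate 5). The submitters describe the samples as biological replicates, although they are in part different strains, so a p-value reflects how these 8 arrays scatter.

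After 6 h of fermentation, JP1 and CAT-1 held more RNA of 19 of the 30 genes than at the start, and of none less (limma's moderated test, adjusted p under 0.05 over 5938 genes). Of all genes tested, 12.7% were higher and 6.96% lower in this comparison. The genes that rose were 15 of the 24 PAU genes and all 4 TIR genes, while DAN1 and DAN4 missed the threshold. The median difference was 1.14 over the PAU genes and 2.12 over the 6 DAN and TIR genes, against -0.00 over all genes kept. Differences of all 30 genes were above 0, and 28 had an unadjusted p under 0.05. Of all 5938 genes, 2952 were above 0 and 1981 had an unadjusted p under 0.05. In RNA of a whole culture, the share of cells that express a gene and its level per cell cannot be told apart.

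**Figure D1:**
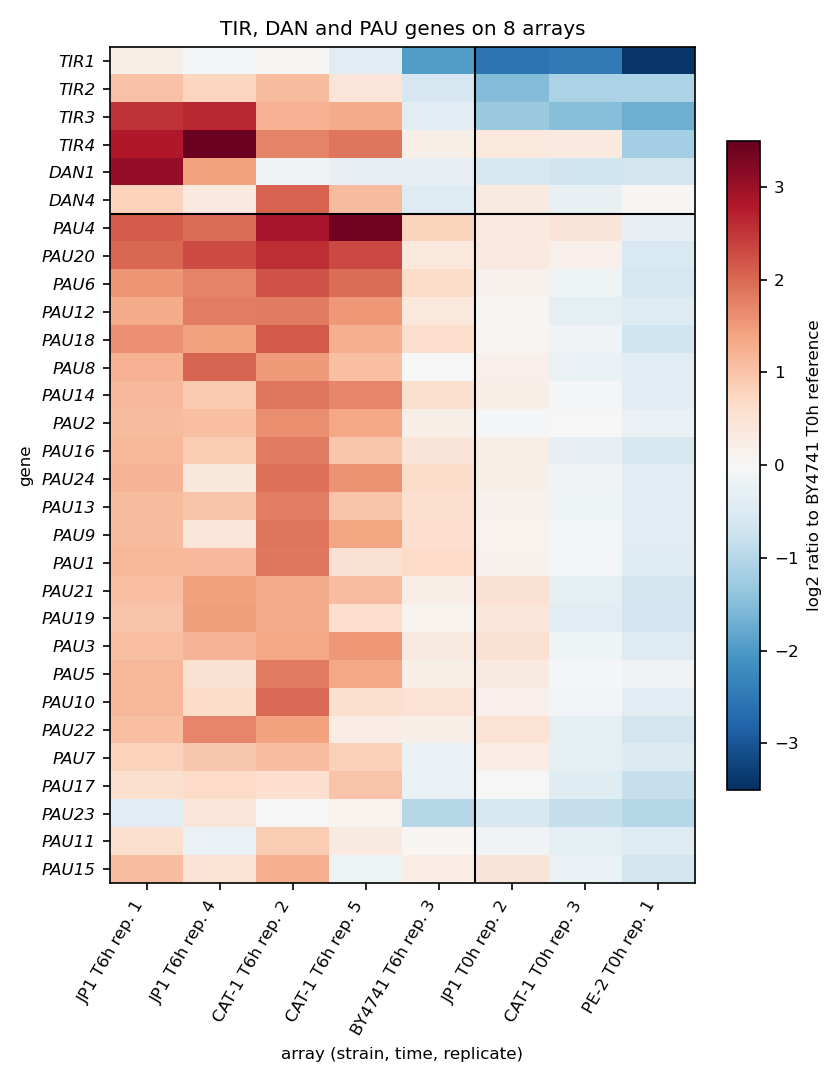
Log2 ratio to the BY4741 T0h reference of the 30 genes (rows) on the 8 arrays (columns), with T6h arrays left of the vertical line, T0h arrays right of it, and TIR and DAN genes above the horizontal line. The JP1 and CAT-1 T6h columns are mostly red for PAU genes, with array medians of 1.02 to 1.80, while the BY4741 T6h column (median 0.34) is paler. In the T0h columns the PAU medians are 0.19 (JP1), -0.15 (CAT-1) and -0.45 (PE-2), and TIR1 to TIR3 are blue.

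Among the TIR genes, which encode wall mannoproteins of cold-shocked and anaerobic cells, TIR3 (YIL011W) moved most. Its log2 ratio was 2.53 and 2.65 in JP1 T6h, 1.21 and 1.31 in CAT-1 T6h and -0.39 in BY4741 T6h, against -1.29 in JP1, -1.50 in CAT-1 and -1.71 in PE-2 at T0h. JP1 T6h stood above CAT-1 T6h, which stood above BY4741 T6h, and the T0h arrays lay lowest without overlap. The time difference in JP1 and CAT-1 was 3.32 ± 0.33 (SE, 4 T6h arrays against 2 T0h arrays), a 9.99-fold rise with a limma adjusted p of 0.000111.

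TIR1 (YER011W), a mannoprotein needed for growth without oxygen, had ratios of 0.21 and -0.06 in JP1 T6h, 0.05 and -0.39 in CAT-1 T6h and -1.94 in BY4741 T6h. At T0h it stood at -2.57 in JP1, -2.48 in CAT-1 and -3.42 in PE-2. The JP1 and CAT-1 T6h arrays thus lay near the level of the BY4741 T0h reference, and all other arrays lay well below it. The rise over time in JP1 and CAT-1 was 2.47 ± 0.30 (limma adjusted p 0.000359).

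TIR2 (YOR010C), a close relative of TIR1, gave 1.03 and 0.74 in JP1 T6h, 1.11 and 0.42 in CAT-1 T6h and -0.58 in BY4741 T6h, against -1.51 in JP1, -1.11 in CAT-1 and -1.08 in PE-2 at T0h. All T6h arrays were above all T0h arrays, and the rise in JP1 and CAT-1 was 2.13 ± 0.33 (limma adjusted p 0.00125). TIR4 (YOR009W), which lies next to TIR2 on the chromosome and is also needed for anaerobic growth, reached 2.80 and 3.46 in JP1 T6h and 1.74 and 1.88 in CAT-1 T6h. It stood at 0.19 in BY4741 T6h, against 0.36 in JP1, 0.35 in CAT-1 and -1.20 in PE-2 at T0h. Its BY4741 T6h array lay among the T0h arrays. Its rise in JP1 and CAT-1 was 2.12 ± 0.37 (limma adjusted p 0.00286). The call was lost without JP1 T0h replicate 2, where the difference is that of CAT-1 alone (1.46, 1 T0h array).

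DAN1 (YJR150C) and DAN4 (YJR151C) lie side by side and encode wall mannoproteins of anaerobic cells, yet their highest values came from different strains. DAN1 had ratios of 3.07 and 1.40 in JP1 T6h, -0.12 and -0.28 in CAT-1 T6h and -0.28 in BY4741 T6h, against -0.57 in JP1, -0.69 in CAT-1 and -0.65 in PE-2 at T0h. Both JP1 T6h arrays were high and the other 6 lay within a narrow band below 0. In the red channel DAN1 was not well above background on the CAT-1 T6h and T0h arrays, so its ratios there have no exact size. On CAT-1 T6h replicate 5 and CAT-1 T0h replicate 3 neither channel was, so those ratios compare undetected signals. Green was not above background on JP1 T6h replicate 4 (1.40) either. By the log2 ratios, measured DAN1 was 6.97-fold higher in JP1 at T6h than in JP1 at T0h, and 5.41-fold higher than in CAT-1 at T6h. The normalised red signals alone, which are open to dye bias, gave 10.8-fold and 8.67-fold. In red, the dim side of each fold (JP1 T0h or CAT-1 T6h) was not well above background, so these folds have no exact size. The fitted time difference over both strains, which includes such undetected signals, was 1.65 ± 0.55 (limma adjusted p 0.0581). Without CAT-1 T0h replicate 3 the difference is that of JP1 alone, 2.80 with 1 T0h array. With slide as a block, the difference over both strains was called (2.10, limma adjusted p 0.0393).

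DAN4 had ratios of 0.81 and 0.35 in JP1 T6h, 2.07 and 1.11 in CAT-1 T6h and -0.45 in BY4741 T6h, against 0.32 in JP1, -0.25 in CAT-1 and 0.05 in PE-2 at T0h. Here CAT-1 T6h was the high pair, and JP1 T6h replicate 4 barely passed JP1 at T0h. The time difference in JP1 and CAT-1 was 1.05 ± 0.42 (limma adjusted p 0.106).

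**Figure D2:**
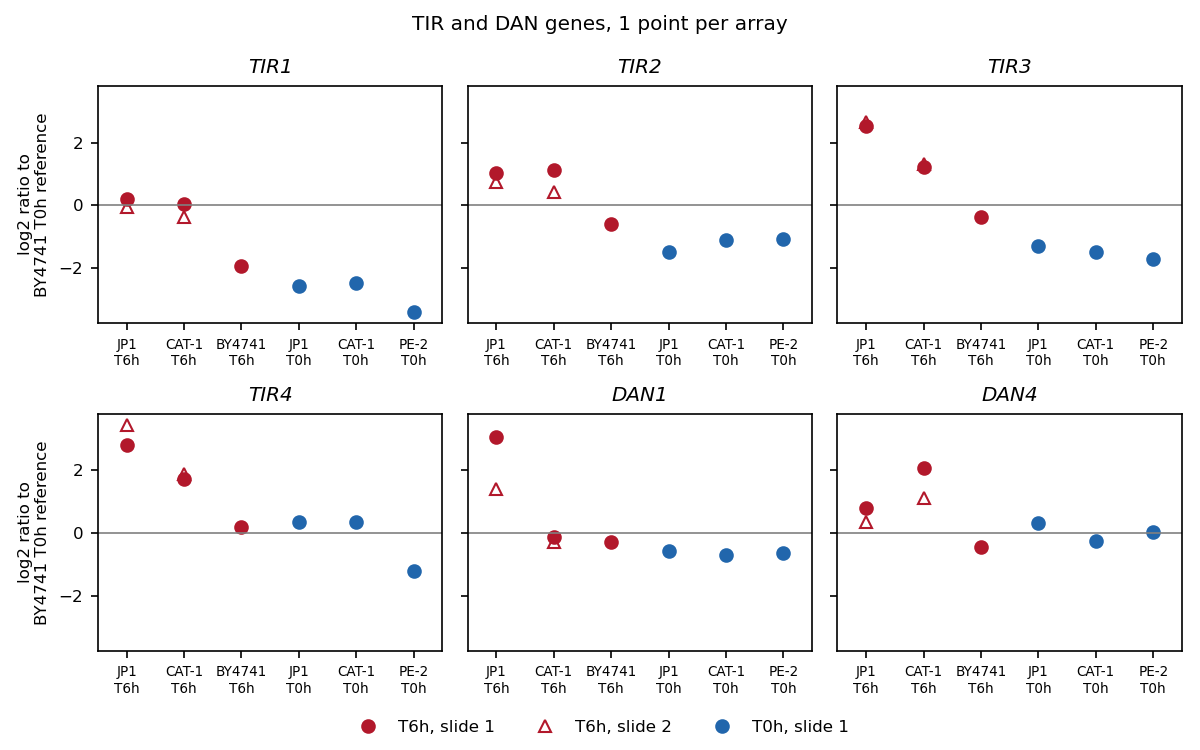
Log2 ratio to the BY4741 T0h reference for each TIR and DAN gene, 1 point per array, with T6h samples left and T0h samples right (circles slide 1, triangles slide 2). The 4 JP1 and CAT-1 T6h points stand above the JP1 and CAT-1 T0h points in all 6 panels, DAN1 is high in JP1 T6h alone (3.07 and 1.40), and the BY4741 T6h point of TIR1 stays at -1.94.

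The PAU genes had a smaller median rise than the TIR and DAN genes. PAU4 (YLR461W) and PAU20 (YOL161C) rose most. PAU4 had ratios of 2.13 and 1.96 in JP1 T6h, 2.89 and 3.36 in CAT-1 T6h and 0.77 in BY4741 T6h, against 0.34 in JP1, 0.46 in CAT-1 and -0.28 in PE-2 at T0h. PAU20 stood at 2.02 and 2.29 in JP1 T6h, 2.60 and 2.32 in CAT-1 T6h and 0.37 in BY4741 T6h, against 0.33 in JP1, 0.19 in CAT-1 and -0.53 in PE-2 at T0h. For both genes the 4 JP1 and CAT-1 T6h arrays lay more than 1 log2 unit above every other array. The time differences in JP1 and CAT-1 were 2.18 ± 0.33 for PAU4 and 2.04 ± 0.30 for PAU20 (limma adjusted p 0.00122 and 0.00101).

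PAU6 (YNR076W) followed with 1.55 and 1.73 in JP1 T6h, 2.22 and 1.95 in CAT-1 T6h and 0.66 in BY4741 T6h, against 0.14 in JP1, -0.15 in CAT-1 and -0.63 in PE-2 at T0h. PAU12 (YGR294W) had 1.29 and 1.80 in JP1 T6h, 1.82 and 1.50 in CAT-1 T6h and 0.37 in BY4741 T6h, against 0.05 in JP1, -0.32 in CAT-1 and -0.44 in PE-2 at T0h. In both genes every T6h array was above every T0h array, with BY4741 the lowest of the T6h arrays. PAU18 (YLL064C) had 1.60 and 1.41 in JP1 T6h, 2.14 and 1.24 in CAT-1 T6h and 0.61 in BY4741 T6h, against 0.06 in JP1, -0.13 in CAT-1 and -0.69 in PE-2 at T0h. PAU8 (YAL068C) had 1.21 and 2.03 in JP1 T6h, 1.50 and 1.06 in CAT-1 T6h and 0.01 in BY4741 T6h, against 0.18 in JP1, -0.22 in CAT-1 and -0.37 in PE-2 at T0h. The BY4741 T6h array of PAU8 lay within its T0h values. The rises in JP1 and CAT-1 were 1.86 for PAU6, 1.74 for PAU12, 1.63 for PAU18 and 1.48 for PAU8 (limma adjusted p 0.00213, 0.00333, 0.00653 and 0.0103). All 4 calls were lost without CAT-1 T0h replicate 3, where the differences are those of JP1 alone (1.49, 1.49, 1.44 and 1.45, 1 T0h array). The 4 calls were also lost with median centring, with differences of 1.77, 1.57, 1.59 and 1.33 (limma adjusted p 0.0552, 0.0726, 0.0657 and 0.143). Without JP1 T0h replicate 2, where the differences are those of CAT-1 alone, the calls of PAU18 (1.82) and PAU8 (1.51) were lost. That of PAU8 (1.63) was also lost with processed signals (limma adjusted p 0.0519).

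The smallest differences were those of PAU23, PAU11 and PAU15. PAU23 (YLR037C) was at -0.38 and 0.44 in JP1 T6h, -0.01 and 0.12 in CAT-1 T6h and -0.99 in BY4741 T6h, against -0.56 in JP1, -0.84 in CAT-1 and -0.99 in PE-2 at T0h. PAU11 (YGL261C) was at 0.57 and -0.22 in JP1 T6h, 0.88 and 0.32 in CAT-1 T6h and 0.06 in BY4741 T6h, against -0.13 in JP1, -0.35 in CAT-1 and -0.44 in PE-2 at T0h. PAU15 (YIR041W) was at 1.08 and 0.51 in JP1 T6h, 1.28 and -0.17 in CAT-1 T6h and 0.26 in BY4741 T6h, against 0.45 in JP1, -0.24 in CAT-1 and -0.64 in PE-2 at T0h. The slide 2 arrays of PAU11 and PAU15 included T6h values within the T0h range. Their time differences of 0.75, 0.62 and 0.57 did not pass (limma adjusted p 0.135, 0.245 and 0.370).

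The 15 PAU genes called rose by 1.07 to 2.18, which is 2.11-fold to 4.55-fold, and the 9 not called differed by 0.57 to 1.11. In 21 of 24 PAU genes and all 6 DAN and TIR genes, every JP1 and CAT-1 T6h array lay above both their T0h arrays, as it did for 21.3% of all genes. The exceptions were PAU11, PAU15 and PAU22. On slide 1 alone, which leaves 1 array per strain and time, 13 PAU genes and the 4 TIR genes were called, and the medians were 1.41 for PAU and 2.24 for DAN and TIR. When CAT-1 T6h replicate 2 was left out, calls higher over all genes went from 754 to 560 and the count of 19 to 11. It was lower still without JP1 T0h replicate 2 or CAT-1 T0h replicate 3, fits that give the change of the other strain alone with 1 T0h array. TIR1, TIR2, TIR3, PAU4 and PAU20 were called under all 14 alternatives tried.

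**Figure D3:**
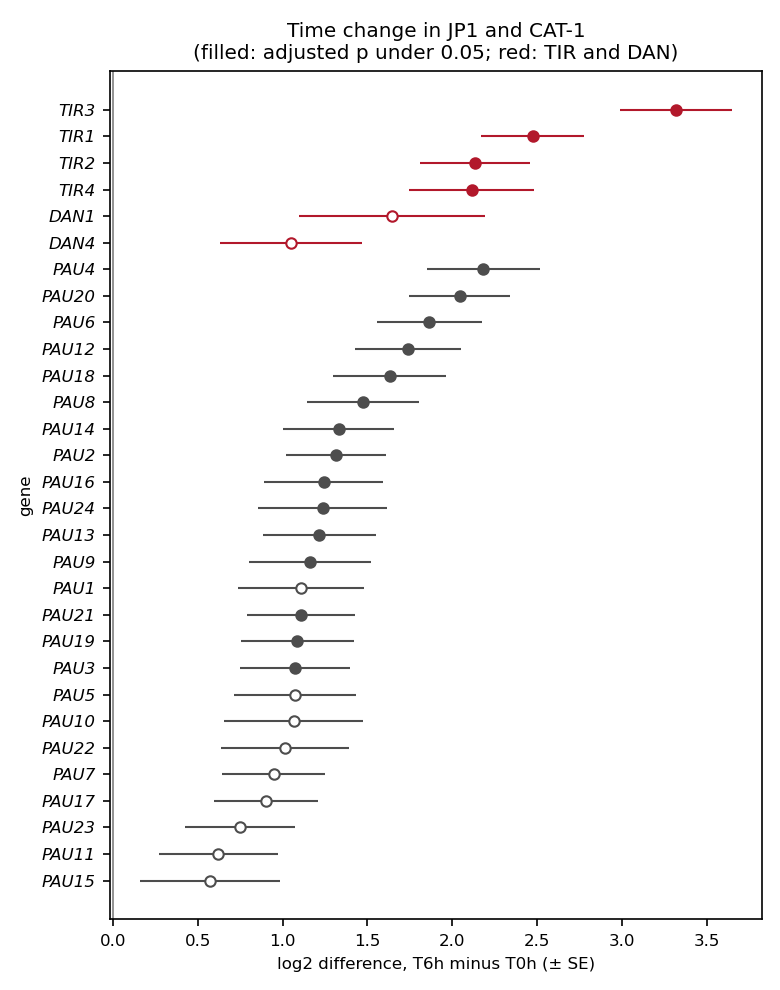
Time difference (T6h minus T0h, log2) in JP1 and CAT-1 for each gene, with bars of ± 1 SE from the limma fit and filled points for adjusted p under 0.05. TIR3 lies farthest right at 3.32, the PAU genes run from 0.57 (PAU15) to 2.18 (PAU4), and no point lies below 0.

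The comparison of all 5 T6h arrays with all 3 T0h arrays, which mixes strains, also called 19 genes higher and none lower (9.72% and 5.93% of all genes). Of these, 18 were the genes called in JP1 and CAT-1. PAU1 was called here alone and PAU19 in JP1 and CAT-1 alone. Every T6h array lay above every T0h array in 13 PAU genes and 4 DAN and TIR genes (13.2% of all genes). Leaving out a T0h array gave a count of 6 (PE-2), 10 (JP1) or 5 (CAT-1). Leaving out a T6h array gave 11 (JP1 replicate 1), 11 (CAT-1 replicate 2), 12 (CAT-1 replicate 5), 13 (JP1 replicate 4) or 25 (BY4741).

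At the start of the fermentation, the industrial strains held less TIR1, TIR2 and TIR3 RNA than the BY4741 reference, while most PAU genes stood close to it. No gene was higher (also 0 at an unadjusted p under 0.05) and 5 were lower, against 15.2% higher and 17.5% lower of all genes. TIR1 was lower by a log2 difference of -2.82 ± 0.22 (SE, n = 3 arrays, limma adjusted p 0.00163), TIR3 by -1.50 ± 0.16 (0.00284) and TIR2 by -1.23 ± 0.17 (0.00477). These 3 genes were called under all 9 alternatives. PAU23 (-0.80) and DAN1 (-0.64) also passed (limma adjusted p 0.0140 and 0.0216), and both calls were lost without CAT-1 T0h replicate 3 (0.10 and 0.139). DAN1 was above background in the BY4741 reference on 2 of these 3 arrays and in no T0h sample, so the measured 1.55-fold lower level in the industrial strains has no exact size.

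TIR4 at -0.16 and DAN4 at 0.04 did not pass at T0h (limma adjusted p 0.723 and 0.877). For TIR4, PE-2 alone was low at -1.20, and without PE-2 the mean was 0.35. The PAU genes had a median of -0.14 at T0h, with array medians of 0.19 in JP1, -0.15 in CAT-1 and -0.45 in PE-2. In PE-2 none of the 24 was above 0, against 21 in JP1. Of all 5938 genes, 2949 were above 0 in PE-2 and 2973 in JP1. With a single dye orientation, a gene's dye bias and its difference from the reference cannot be told apart in this comparison.

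In BY4741 itself, 29 of the 30 genes were within 2-fold of the T0h level after the same 6 h. The single BY4741 T6h array gives its change from the BY4741 T0h reference as a value without a test. The PAU median was 0.34 (range -0.99 to 0.77) and the DAN and TIR median -0.42 (range -1.94 to 0.19). None of the 30 was at least 2-fold higher and TIR1 was at least 2-fold lower, against 15.6% and 13.1% of all genes.

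For 6 of the 30 genes the change over time was higher in JP1 and CAT-1 than in BY4741, and for none was it lower (6.74% and 5.25% of all genes). These were all 4 TIR genes and 2 of the 24 PAU genes. TIR1 rose by 2.47 in JP1 and CAT-1, against a value of -1.94 in BY4741, a difference of 4.42 ± 0.46 (limma adjusted p 0.00160). TIR3 differed by 3.71 ± 0.51 (0.00321), TIR2 by 2.72 ± 0.50 (0.0109) and TIR4 by 1.92 ± 0.56 (0.0498). PAU23 differed by 1.74 ± 0.50 and PAU20 by 1.68 ± 0.46 (limma adjusted p 0.0464 and 0.0387). The median difference was 0.87 over the PAU genes and 2.32 over the DAN and TIR genes.

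This difference rests on 1 BY4741 array and moved with the processing. It was called for 2 genes with a normexp offset of 10 and for 0 with the scanner's processed signals or median centring, and for 3 on slide 1 alone or with slide as a block. It was called for 2 genes without JP1 T0h replicate 2, and for 3 without CAT-1 T6h replicate 2, JP1 T6h replicate 4 or CAT-1 T6h replicate 5. Without JP1 T0h replicate 2, the JP1 and CAT-1 change is that of CAT-1 alone. Over all 5938 genes, 400 were called higher and 312 lower here (56.2% higher). These counts were 80 and 19 with the offset of 10 (80.8%), 4 and 1 with processed signals (80.0%) and 2 and 0 with median centring (100%). All 6 DAN and TIR genes and 22 of the 24 PAU genes kept their sign under every alternative, 14 for each gene but 13 for DAN1.

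Set side by side at T6h alone, JP1 and CAT-1 stood above BY4741 in all 30 genes, by a median of 0.96 for PAU genes and 1.71 for DAN and TIR genes. None passed in limma's test (0% of all genes did either way), and 13 had an unadjusted p under 0.05. Of all 5938 genes, 3068 stood above BY4741 and 894 had an unadjusted p under 0.05. The lowest adjusted p of the 30 was 0.0803, for PAU20 at 1.94, and TIR1 differed by 1.90 ± 0.44 (limma adjusted p 0.0864).

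No difference between CAT-1 and JP1 passed the test. The largest fitted one was that of DAN1 (-1.67 ± 0.52), followed by TIR3 and TIR4, all with lower values in CAT-1. With time as a term, 0 of the 30 genes differed between CAT-1 and JP1 (0.0674% higher and 0.0337% lower of all genes). An unadjusted p under 0.05 was seen for 903 of all 5938 genes and for 4 of the 30. The 4 were TIR3 (-0.96 ± 0.31), TIR4 (-0.89 ± 0.35) and PAU4 (0.76 ± 0.31), with limma adjusted p of 0.211, 0.268 and 0.286, and DAN1 (0.192), which was not above background in red in CAT-1. With 1 T0h array per strain, the time change of CAT-1 was above that of JP1 in 24 of 24 PAU genes (median 0.65). It was above in 3228 of all 5938 genes (median 0.08) and in 1 of 6 DAN and TIR genes, namely DAN4 (median of the 6, -0.82). No gene passed in limma's test of that difference (0% of all genes). Its unadjusted p was under 0.05 for 341 of all 5938 genes and for 1 of the 30. This was DAN1 (limma adjusted p 0.753), which was not above background in red in CAT-1 or at T0h, so that its fitted difference has no exact size. It passed without JP1 T6h replicate 4 (limma adjusted p 0.0111), a fit that rests on 1 array each for JP1 T6h, JP1 T0h and CAT-1 T0h.

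Within the PAU group, values ran closely together. Over the 8 arrays, the 276 pairs of PAU genes had a median Pearson correlation of 0.889, and over the 6 arrays of slide 1 it was 0.961. The 6 TIR pairs had a median of 0.943 over the 8 arrays and the 15 pairs of DAN and TIR genes 0.751. These points share the reference RNA, the slides and the difference in time, and the correlations are descriptions. On every array of slide 1, 8 of the 276 PAU pairs (2.90%) differed by at most 0.1 log2, as did 0 of 15 DAN and TIR pairs and 96 of 17627000 pairs among all genes. The 9 genes in such pairs were PAU1, PAU6, PAU9, PAU13, PAU14, PAU15, PAU18, PAU21 and PAU24. The closest pair was PAU9 and PAU1, whose largest difference was 0.073. Counts of called PAU genes may therefore include values that are not separate measurements, and this was not tested.

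Most PAU genes are found at chromosome ends in the RefSeq gene order. Of the 24, 19 had fewer than 10 protein-coding genes between them and the end, and 14 of these 19 rose over time in JP1 and CAT-1 (median 1.22). The other 5 were PAU2, PAU5, PAU7, PAU17 and PAU23, of which PAU2 rose (median of the 5, 0.95). Among the 271 other genes within the same distance of an end, 48 rose and 13 fell (17.7% higher, median 0.06). The DAN and TIR genes lay 10 to 176 genes from an end.

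The regulators known to act on these genes also moved over time in JP1 and CAT-1. Of the 8 listed, 6 rose and none fell, against 12.7% higher and 6.96% lower of all genes. With processed signals 2 rose, with an offset of 10 it was 4, with median centring 0 and on slide 1 alone 2. Over all 5938 genes, 754 rose in the main fit, and 405, 526, 244 and 524 in these settings, in the same order. MOT3, a repressor of hypoxic genes, rose by 1.76 ± 0.43, TUP1 by 1.72 ± 0.35 and CYC8 by 1.43 ± 0.34, the last pair forming the general corepressor (limma adjusted p 0.0152, 0.00588 and 0.0144). UPC2, the activator, rose by 1.32 ± 0.40, SUT1, an activator of sterol uptake genes, by 1.20 ± 0.34 and HAP1, the heme-responsive activator, by 0.91 ± 0.29 (0.0410, 0.0314 and 0.0493). ROX1 (0.36) and ECM22 (-0.24), a repressor and the relative of Upc2, did not pass. Activators and repressors thus both rose.

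UPC2 had ratios of 1.77 and 0.62 in JP1 T6h, 0.72 and 0.35 in CAT-1 T6h and 0.94 in BY4741 T6h, against -0.70 in JP1, -0.21 in CAT-1 and -0.94 in PE-2 at T0h. All T6h arrays, BY4741 included, were above all T0h arrays. The time change of UPC2 in JP1 and CAT-1 differed from that in BY4741 by 0.38 ± 0.61 (limma adjusted p 0.720). TUP1 and HAP1 were the regulators whose time change was larger in JP1 and CAT-1 than in BY4741, by 2.50 ± 0.53 and 1.65 ± 0.44 (limma adjusted p 0.0167 and 0.0358). This rests on 1 BY4741 array, and 0 of the 8 regulators were called with processed signals, an offset of 10, median centring or slide 1 alone. At T0h, SUT1 (-1.55), TUP1 (-0.94) and UPC2 (-0.62) were lower in the industrial strains than in the BY4741 reference (limma adjusted p 0.00213, 0.0187 and 0.0484).

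Other genes of anaerobic and wall metabolism changed in both directions. The sterol importers supply sterol when it cannot be made. Over time in JP1 and CAT-1, PDR11 was higher by 1.58 and AUS1 lower by a difference of -1.09 (limma adjusted p 0.00491 and 0.0405). Neither importer was called lower with processed signals, an offset of 10, median centring or slide 1 alone. With median centring 0 were called higher, and in each of the other settings 1. Of 9 hypoxic genes, 4 rose and 1 fell (12.7% and 6.96% of all genes). COX5B, the low-oxygen form of a cytochrome oxidase subunit, rose by 2.96, ANB1, a translation factor gene used at low oxygen, by 2.34 and the fumarate reductase gene FRD1 by 1.51 (limma adjusted p 0.000239, 0.00180 and 0.0320). OLE1, the fatty acid desaturase, fell, with a difference of -2.83 (limma adjusted p 0.000310).

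In the other comparisons these genes also went both ways. At T0h, AUS1 (0.91), HMG2 (0.88) and HEM13 (0.52), the last pair genes of sterol and heme synthesis, were higher in the industrial strains than in the BY4741 reference (limma adjusted p 0.00950, 0.0147 and 0.0465). COX5B (-3.16) and FRD1 (-1.04) were lower there (0.00284 and 0.0271). Against BY4741, the time change in JP1 and CAT-1 was higher for CYC7 (2.94), a cytochrome c gene, COX5B (2.43) and PDR11 (1.77), and lower for AUS1 (-2.74), with limma adjusted p of 0.0190, 0.0171, 0.0348 and 0.0109. ANB1, at 4.27 on the BY4741 T6h array, differed by -1.93 (limma adjusted p 0.0527).

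Of 11 other wall mannoproteins, 5 rose and none fell over time in JP1 and CAT-1 (12.7% and 6.96% of all genes), with CCW14 at 2.25, SPI1 at 2.05 and CWP2 at 1.95 (limma adjusted p 0.000597, 0.00355 and 0.00247). At T0h, 6 of these 11 were lower in the industrial strains than in the BY4741 reference and none was higher (17.5% and 15.2% of all genes), with SPI1 at -3.14, TIP1 at -1.57 and FIT3 at -1.15 (limma adjusted p 0.00565, 0.0286 and 0.0189). The time change of 6 of the 11 was larger in JP1 and CAT-1 than in BY4741 and of none smaller (6.74% and 5.25% of all genes), led by SPI1 (3.42), CCW14 (2.63) and TIP1 (2.36), with limma adjusted p of 0.00747, 0.00922 and 0.0123. Of 6 protein mannosyltransferase genes, whose products attach mannose to such proteins, PMT2 alone rose over time in JP1 and CAT-1 (1.94, limma adjusted p 0.00126). Over these 5 lists of 36 genes, the time change against BY4741 was called higher for 12 genes and lower for 1. It was called for 0 genes with processed signals or median centring, 1 with an offset of 10 and 3 on slide 1 alone. Calls over all genes also fell, to 4 higher and 1 lower with processed signals and to 2 and 0 with median centring. For time in JP1 and CAT-1, the 5 lists held 17 calls higher and 2 lower. These became 6 and 1 with processed signals or median centring, 12 and 1 with an offset of 10 and 10 and 1 on slide 1 alone. Calls over all genes fell there from 754 higher and 413 lower to 405 and 243 with processed signals. With median centring they fell to 244 and 95.

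**Figure D4:**
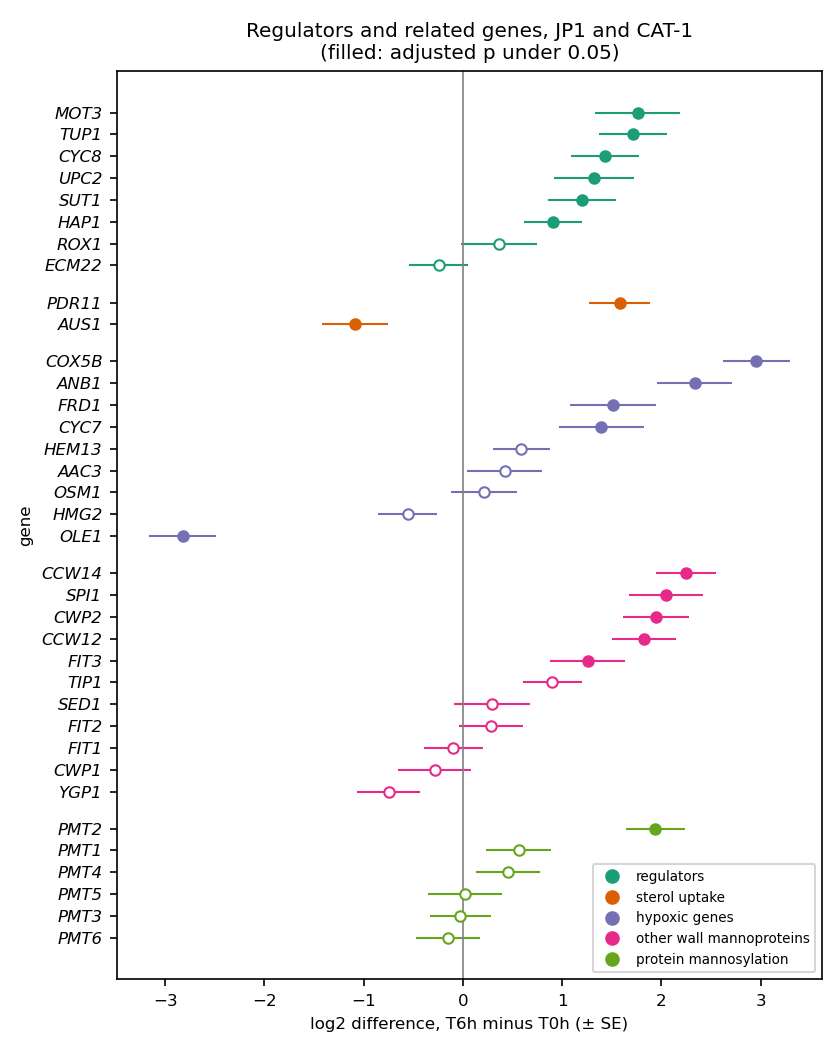
Time difference (T6h minus T0h, log2) in JP1 and CAT-1 of the regulators and related genes, grouped and coloured by list, with bars of ± 1 SE and filled points for limma adjusted p under 0.05. The regulators reach from -0.24 (ECM22) to 1.76 (MOT3), COX5B is farthest right at 2.96, and OLE1 is farthest left at -2.83.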

How the data were processed

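Images were quantified with Agilent Feature Extraction 10.10.1.1, per the file headers, and the deposited spot signals and backgrounds are intensity values. The deposited scanner files also give processed signals (intensity, background-subtracted and dye-normalised by that software) and their log10 ratio, red over green. The software's spot flags and the deposited value table, whose unit is not stated, are in no physical unit (other). The submitters' processing notes name limma without a version.

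Median signals were corrected by normexp (offset 50) and normalised within arrays by loess in limma 3.58.1 (R 4.3.3), with control and marked spots left out or given no weight, and the 2 spots of a gene averaged on the log2 scale. A gene was kept if red or green was well above background on 3 arrays or more (5938 genes). Of 6256 gene probes, 5756 were named from the RefSeq gene table of assembly R64 and 500 were not, and its gene order was used without coordinates. There were 7 comparisons, each by limma's moderated two-sided test with Benjamini-Hochberg adjustment over all genes kept and a threshold of 0.05. The fit was tested on simulated data.

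The members and lists were chosen with earlier results of these data known. The text names each DAN and TIR gene, the 6 PAU genes with the largest and the 3 with the smallest time difference in JP1 and CAT-1, PAU genes called in another comparison, the regulators, and the 3 called genes with the largest difference of each other list. PAU genes outside this rule were named after their values were seen. Precision is limited by the 8 arrays. Alternatives changed the background correction, normalisation, filters, slides and arrays used.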

Additional observations from a re-analysis of the deposited data

Results flagged for a closer look

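At T6h, the BY4741 array lay apart from the 4 JP1 and CAT-1 arrays by Dixon's gap test for 3 of the 30 genes, TIR1 (-1.94), PAU20 (0.37) and PAU7 (-0.24), lowest of the 5 in each. Chance flags about 1 group in 20 if arrays are alike and genes independent, while these arrays differ in strain and slide and the PAU genes ran together. The gap test was run on the 30 genes alone, so whether 3 flags are particular to them was not tested. Values of the other 4 arrays ran from -0.39 to 0.21 for TIR1, from 2.02 to 2.60 for PAU20 and from 0.81 to 1.09 for PAU7.

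The time change in JP1 and CAT-1 differed from that in BY4741 in limma's test of the difference itself for TIR1 (4.42), TIR3 (3.71), TIR2 (2.72), TIR4 (1.92), PAU23 (1.74) and PAU20 (1.68). BY4741 was seen on 1 array at T6h, so a feature of that array and one of the strain cannot be told apart.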

How the results depend on the processing

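The number of the 30 genes called higher at T6h than at T0h over 8 arrays was 19, but 5 with median centring, 10 with slide as a block, 7 on slide 1 alone and 5 to 25 when 1 array was left out. With the replicate number as a block it was 3, yet same-numbered arrays are different strains and their deviations correlated at -0.07 to -0.15, so the numbers do not pair the samples. For time in JP1 and CAT-1, 19 became 11 with processed signals, 12 with an offset of 10, 6 with median centring and 7 to 18 with 1 array left out. The DAN and TIR median of 2.12 was 2.52 with an offset of 10 and 1.85 to 2.71 with 1 array left out, and the PAU median of 1.14 was 0.81 to 1.52. At T0h against the BY4741 reference, 5 genes were lower, and 3 to 5 with 1 array left out. There DAN4 (0.04, not called) turned to -0.069 with median centring and ranged from -0.10 to 0.18 with 1 array left out, and TIR4 (-0.16, not called) ranged from -0.43 to 0.35. For CAT-1 minus JP1 in time change, 0 were lower, and 0 to 1 with 1 array left out. For JP1 and CAT-1 against BY4741, 6 became 0 with processed signals, 2 with an offset of 10, 0 with median centring, 3 with slide as a block, 3 on slide 1 alone (the last pair chosen after seeing the data) and 2 to 7 with 1 array left out. In that comparison calls over all genes fell too, from 400 higher and 312 lower to 4 and 1 with processed signals and 2 and 0 with median centring. For time in JP1 and CAT-1, calls higher over all genes fell from 754 to 405 with processed signals. They fell to 526 with an offset of 10 and 244 with median centring. For T6h against T0h they fell from 577 to 269 with median centring, 426 with slide as a block and 451 on slide 1 alone. Leaving out the T0h array of JP1 or CAT-1 leaves the time change of the other strain alone. The cause of these changes was not tested. Medians with slide as a block, on slide 1 alone or with 1 array left out, and counts of the related lists under alternatives, were also chosen after seeing the data. Among single genes, 501 values kept direction and side of the threshold, 69 fell below it, 3 passed it and 3 turned. The deposited value table was not run as an alternative, since most of its columns follow another array. Green signal near background on slide 2 limits the ratios of its JP1 and CAT-1 arrays.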
